A study of Mus musculus with 32 samples.

Results

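The quadriceps muscle of female mice without Col6a2 was compared between 25 and 5 weeks of age by RNA sequencing. The comparison rests on 8 libraries of 32 in the series, 4 at each age, chosen only by the genotype, sex and age that the labels give. Each library came from 1 mouse. The mice were homozygous for Col6a2 tm1(KOMP)Vlcg, a knockout allele made on C57BL/6N and crossed for 5 generations to C57BL/6J, and are called Col6a2-/- here. For this allele the labels name no promoter, Cre or tissue restriction, and no treatment of the mice. Wild type (WT) females of 5 and 25 weeks from the same breeding scheme, with heterozygous parents, and Col6a2-/- males of 5 and 25 weeks, also 4 mice per group, served only to show where the change with age differed by genotype or by sex. Values are TPM, the authors' estimate of a gene's share of all transcripts, corrected for gene length and scaled to the same total in every library. Changes are 25 weeks minus 5 weeks on the log2(TPM + 1) scale; because 1 is added, genes near or under 1 TPM changed by more than the printed value.

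Collagen VI is a microfibril-forming protein of the extracellular matrix, built from chains encoded by Col6a1, Col6a2 and Col6a3, and in muscle it lies next to the basement membrane of the fibres, where interstitial fibroblasts deposit it. Loss of collagen VI in people causes a group of congenital muscular dystrophies. Muscle of a growing mouse still makes much new matrix and may retain embryonic forms of contractile proteins, both of which decline toward adulthood. How far this held in the WT females here is given below. Embryonic contractile proteins, the membrane proteins that fuse muscle precursors and the fetal subunit of the acetylcholine receptor also return in muscle that regenerates or has lost its nerve.

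The labels fitted the data at the targeted gene. Col6a2 was between 0 and 0.0344 TPM in the 8 Col6a2-/- females and between 12.2 and 30.2 TPM in the 8 WT females. The labelled tissue fitted as well, since Myh4, the fast myosin heavy chain of type IIB fibres, stood between 2222 and 6379 TPM in all 8 Col6a2-/- females. Inferred depth, a relative measure taken from the ratio of coverage to FPKM, ran from 7.447 to 13.69 in the 5-week and from 8.19 to 10.02 in the 25-week libraries. Mitochondrial genes took 33.1 to 43% of TPM at 5 weeks and 32.4 to 43.4% at 25 weeks, and the Rn7s genes took 22.3 to 26.2% and 21.8 to 29.4%. The differences between the ages in these shares and in depth did not pass a two-sided exact permutation test, with p of 0.543, 0.743 and 0.371, where the smallest p that 4 against 4 allows is 0.0286. Replicates 2 and 4 at 5 weeks stood apart from the others. On the first principal component, which held 46.2% of the variance of the 8 libraries, replicate 2 was at 58.2, replicates 1 and 3 at 17.4 and 7.62, and replicate 4 at -19.7, within the range of -23.4 to -5.98 of the 25-week libraries. Replicate 2 had 12877 genes at 1 TPM or more and replicate 4 had 10903, against 11103 to 11587 at 25 weeks. Results that rest on these libraries are given below with and without them, and values per mouse are listed in the order of replicates 1 to 4.

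Between 5 and 25 weeks, 961 of 12817 genes tested changed in Col6a2-/- females, which is 7.50% of them (limma, Benjamini-Hochberg adjusted p under 0.05, the threshold for a gene said here to be called). Most calls were falls: 739 genes (5.77%) were lower at 25 weeks and 222 (1.73%) were higher, and 157 genes fell but only 25 rose by 2-fold or more. The median change of all genes tested was -0.086, and 974 genes (7.60%) had no overlap between the 4 mice of one age and the 4 of the other. The share of falls among the calls depended on the scaling. It was 76.9% with TPM as deposited, 64.1% after rescaling without the 100 most abundant genes (633 higher, 1131 lower), 64.5% without mitochondrial and Rn7s genes (278 higher, 505 lower), 56.2% by median-of-ratios scaling (821 higher, 1052 lower) and 49.9% with quantile normalization (959 higher, 957 lower), which moved the median of all genes by 0.106. With only the 8 libraries of this comparison in the fit, 44 genes were higher and 68 lower, and 109 of these 112 were among the 961; 48 of the 93 calls of named genes were lost in that fit.

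The 5-week mice differed in how strongly they showed the falls. Of the 739 genes that fell, replicate 2 had the highest 5-week value in 661 and replicate 4 the lowest in 621. Without replicate 2 the test called 300 genes higher and 290 lower, without replicate 4 it called 305 higher and 2128 lower, and without both it called 324 higher and 748 lower. Leaving out replicate 1 at 5 weeks gave 487 calls, and leaving out replicate 2 or 3 at 25 weeks gave 579 or 564. Genes named below as having risen or fallen were called in all 8 fits that each leave out 1 of these libraries unless the text gives the fits in which the call was lost. The 12 largest rises and 12 largest falls were taken only from called genes whose ages did not overlap, so the absence of overlap in them is no further support. Genes named for the smallest p in a list were chosen by the same values. Their lack of overlap is no further support either.

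In WT females 236 genes (1.84%) were called with age, of which 85 (0.663%) were lower at 25 weeks, and in Col6a2-/- males 3315 (25.9%) were called, of which 2936 (22.9%) were lower. The 3 comparisons share no library. Of the genes called in Col6a2-/- females, 145 were also called in WT females, which is 15.1% of the first list and 61.4% of the second, and 144 of them had the same sign. With Col6a2-/- males 826 calls were shared, 86.0% of the female list and 24.9% of the male list, all with the same sign. The genes that fell in Col6a2-/- females had a median change of -0.66 there, of -0.19 in WT females and of -0.84 in Col6a2-/- males. The genes that rose had medians of 0.54, 0.41 and 0.48. Both sets were chosen by their calls in Col6a2-/- females, so the medians do not compare the groups on equal terms. Over all genes tested the medians were -0.086, 0.057 and -0.19 in the same order. Across the 12817 genes the changes of the Col6a2-/- females correlated with those of WT females at r = 0.518 and with those of Col6a2-/- males at r = 0.751, as a description over genes that share their libraries.

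**Figure D1:**
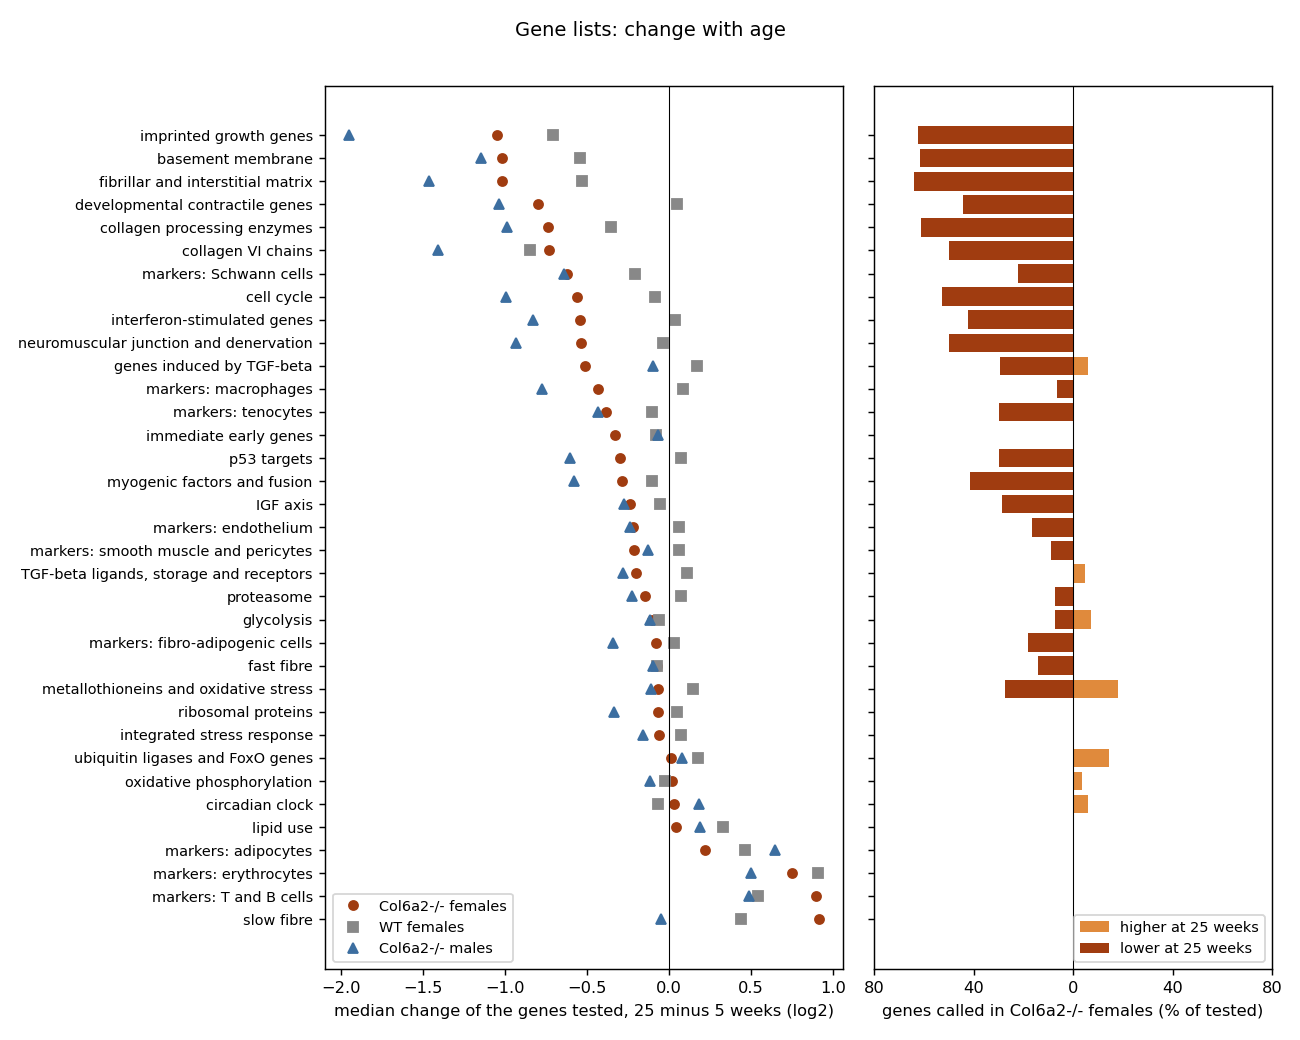
Gene lists and their change from 5 to 25 weeks. Left, the median log2 change of each list's tested genes in Col6a2-/- females, WT females and Col6a2-/- males. Right, the percent of tested genes called lower (to the left) or higher (to the right) in Col6a2-/- females; the bars to the left are longest for the fibrillar matrix, imprinted, basement membrane and collagen-processing lists, and the slow fibre list has a median of 0.91 with no gene called.

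Genes of newly formed or embryonic muscle fibres fell with age in Col6a2-/- females, and the counts of this and the later lists stand beside 5.77% of all genes tested called lower and 1.73% called higher. Of 12 genes tested among myogenic factors and fusion genes, 5 fell and none rose, with a list median of -0.29, and of 9 developmental contractile genes 4 fell and none rose, with a median of -0.80. The corresponding counts in WT females were 0 and 1 lower, with list medians of -0.11 and 0.049. The 1 gene was Actc1. Myl4, Tnnt2 and Myh3 changed in WT females by 0.20, -0.053 and -0.15 and were not called. Of the 12 myogenic and fusion genes 4, and of the 14 junction and denervation genes described below 2, would have failed the filter of 1 TPM in 4 libraries without the 5-week Col6a2-/- mice of both sexes, so the counts are no support for a difference between genotypes. In Col6a2-/- females the counts of falls stayed between 5 and 7 and between 4 and 5 over the 8 fits that leave out 1 library, and between 5 and 6 and at 4 over the 4 scalings. In bulk tissue, fewer cells of a type and less RNA per cell cannot be told apart, here and in all that follows.

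Mymx (myomixer, chr17:45600971-45602102 on GRCm38) and Mymk (myomaker, chr2:27061636-27072179 on GRCm38) encode the membrane proteins that fuse muscle precursors into fibres. Mymx was at 12.2, 16.8, 6.46 and 3.7 TPM in the 5-week mice and at 0.241, 0.237, 0.279 and 0.488 TPM in the 25-week mice. It fell by 2.87 (SE 0.23, adjusted p = 2.2e-09). All 4 young mice lay above all 4 old mice, and above every WT female, where Mymx reached at most 0.164 TPM at either age. Mymk was at 5.47, 7.45, 3.0 and 2.21 TPM and then at 0.0919, 0.137, 0.0479 and 0.60 TPM, and fell by 2.1 (SE 0.19, adjusted p = 2.41e-08). Myog, the transcription factor that drives terminal muscle differentiation, was at 19, 26.7, 13.3 and 6.66 TPM at 5 weeks and at 1.9, 2.31, 2.53 and 4.48 TPM at 25 weeks. It fell by 2.09 (SE 0.27, adjusted p = 7.67e-06), against a change of -0.66 in WT females (adjusted p = 0.273). The ages did not overlap for Mymk and Myog either, and replicate 4 was the lowest of the young mice in all 3 genes. Myf5, an earlier factor of the myogenic lineage, was not called, with a difference of -0.29 (adjusted p = 0.052).

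Among contractile genes, Actc1, the cardiac alpha-actin that skeletal muscle makes during development, was at 850.0, 1663, 391 and 571 TPM at 5 weeks and between 65 and 93.4 TPM at 25 weeks. It fell by 3.27 (SE 0.36, adjusted p = 8.52e-07), and it also fell in WT females, by 2.86 (adjusted p = 2.96e-05). Myl4, the embryonic and atrial essential myosin light chain (chr11:104550663-104595753 on GRCm38), behaved differently between genotypes. It was at 40, 51.7, 29.2 and 17.4 TPM in young Col6a2-/- females, at 4.17, 4.19, 3.49 and 7.48 TPM in old ones, and between 2.43 and 6.03 TPM in WT females of both ages. In Col6a2-/- females it fell by 2.55 (SE 0.23, adjusted p = 2.1e-08). Tnnt2, the cardiac and embryonic troponin T, went from 6.86, 9.49, 4.19 and 3.37 TPM to 1.26, 0.94, 1.52 and 2.57 TPM and fell by 1.39 (SE 0.20, adjusted p = 3.64e-05). Myh3, the embryonic myosin heavy chain, was at 11.7, 15.8, 8.46 and 5.63 TPM and then at 2.23, 2.29, 1.89 and 5.69 TPM. It fell by 1.5 (SE 0.22, adjusted p = 6.37e-05), although replicate 4 at 25 weeks, at 5.69 TPM, lay just above replicate 4 at 5 weeks.

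**Figure D2:**
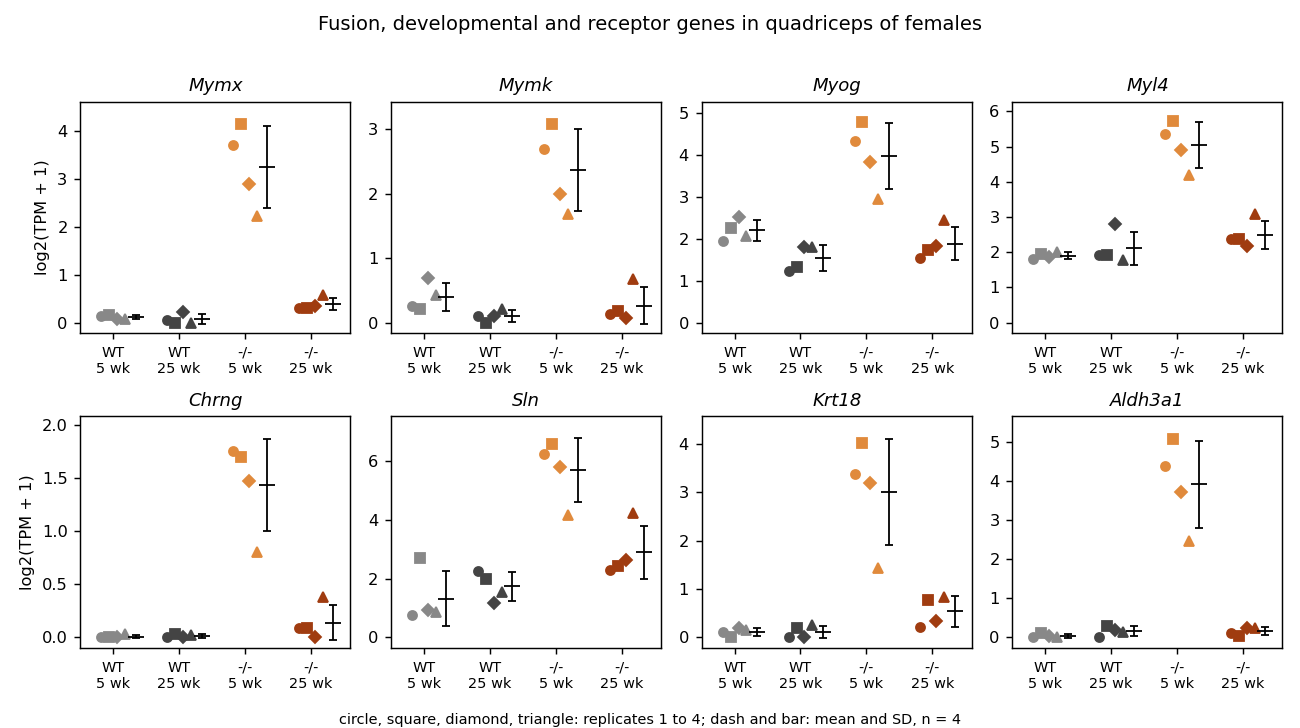
Levels of 8 genes in the 16 female libraries as log2(TPM + 1), with 1 point per mouse, the shape marking the replicate number, and a dash with a bar for the mean and SD of 4 mice. The 5-week Col6a2-/- group has the highest mean in every panel, and the triangle of replicate 4 is the lowest of its 4 points.

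Receptor genes of the neuromuscular junction and genes known to respond to loss of the nerve fell too, 7 of 14 tested, with a median of -0.54, while none was called in WT females. Chrng, the fetal gamma subunit of the acetylcholine receptor (chr1:87204657-87212694 on GRCm38), was at 2.38, 2.24, 1.78 and 0.749 TPM at 5 weeks and at 0.0638, 0.0658, 0 and 0.298 TPM at 25 weeks. It fell by 1.29 (SE 0.13, adjusted p = 1.7e-07), and it was at 0.0244 TPM or less in every WT female. Chrnd, the delta subunit, went from 2.7, 3.4, 1.71 and 1.37 TPM to 0.60, 0.566, 0.431 and 0.895 TPM and fell by 0.99 (SE 0.17, adjusted p = 0.000345). Chrna1, the alpha subunit that both the fetal and the adult receptor contain, fell by 1.23 (SE 0.26, adjusted p = 0.00254). Chrne, the subunit that replaces gamma in the adult receptor, was not called, with a difference of -0.40 (adjusted p = 0.48). Sln encodes sarcolipin, a small inhibitor of the calcium pump of the sarcoplasmic reticulum. It was at 75.7, 95.8, 55 and 16.9 TPM at 5 weeks and at 3.9, 4.42, 5.2 and 17.9 TPM at 25 weeks, and it fell by 2.81 (SE 0.42, adjusted p = 7.09e-05). Replicate 4 at 25 weeks lay just above replicate 4 at 5 weeks, so the ages overlapped. Schwann cell markers, which come from the nerve's own cells, had a summed level of 65.8 to 122 TPM at 5 weeks and 23.2 to 49.1 TPM at 25 weeks in Col6a2-/- females, and of 38.2 to 114 and 29.3 to 42.5 TPM in WT females. Sox10 was below 1 TPM in all 8 Col6a2-/- females, and 2 of 9 tested markers were called lower, a count of 0 to 6 when 1 library was left out. Their part in the fall of the receptor genes was not tested.

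The promoters of Myog, Tnnt2 and Chrng, 3 of the muscle genes that fell, are shown as examples of windows with E-boxes, short sites of the form CANNTG that myogenic factors are known to bind; they were chosen after the windows were searched. Each is the 250 bases before the start site in RefSeq (GRCm38.p6), on the gene's own strand, with every CANNTG in capitals. A CANNTG reads as CANNTG on either strand, and CAGCTG is one of its forms. The RefSeq start of Chrng lies 1154 bases inside the gene as the authors' tables place it, that of Tnnt2 20 bases and that of Myog 15 bases from the table's gene start.
Chrng, chr1:87205561-87205810: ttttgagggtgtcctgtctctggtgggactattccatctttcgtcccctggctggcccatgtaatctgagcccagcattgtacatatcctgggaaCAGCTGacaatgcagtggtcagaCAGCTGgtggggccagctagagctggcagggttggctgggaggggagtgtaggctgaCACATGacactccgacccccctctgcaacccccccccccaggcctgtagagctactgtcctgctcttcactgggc
Tnnt2, chr1:135836084-135836333: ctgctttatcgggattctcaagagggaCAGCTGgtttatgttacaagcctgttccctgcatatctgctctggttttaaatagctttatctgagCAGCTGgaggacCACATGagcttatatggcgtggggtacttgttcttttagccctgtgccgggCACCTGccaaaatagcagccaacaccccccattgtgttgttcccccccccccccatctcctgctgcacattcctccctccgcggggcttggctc
Myog, chr1:134289754-134290003: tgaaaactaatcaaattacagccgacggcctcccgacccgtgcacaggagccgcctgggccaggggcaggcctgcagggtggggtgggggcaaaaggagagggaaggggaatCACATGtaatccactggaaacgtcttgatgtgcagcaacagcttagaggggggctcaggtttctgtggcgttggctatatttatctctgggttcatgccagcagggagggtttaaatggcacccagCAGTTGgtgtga
Chrng holds CAGCTG with its first base 155 and 132 bases before the start and Tnnt2 at 223 and 157 bases, while the Myog window holds no CAGCTG and 2 other CANNTG sites. The windows of Actc1 and Myl4, which fell by more than Tnnt2 and Chrng, hold no CANNTG, and that of Myh3 holds 1 CANNTG and no CAGCTG. Of the 26 genes looked up (the 12 largest falls, the 15 genes that differed by genotype, Myh3 and the leading genes of the 3 muscle lists above), 19 matched a RefSeq promoter, 4 of them held CAGCTG and 13 held CANNTG. Among 32851 mouse promoters of the same length, 13.0% held CAGCTG and 66.2% held CANNTG, so the share with CANNTG was near that of all promoters. These matches describe letters in the window and no binding.

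Of 25 fibrillar and interstitial matrix genes 16 fell and none rose, with a median of -1.02, and the counts in WT females and Col6a2-/- males were 5 and 19. The count of falls in Col6a2-/- females was 10 without replicate 2 at 5 weeks or without replicate 3 at 25 weeks, and 19 without replicate 4 at 5 weeks. Col1a1 and Col1a2, the chains of type I collagen, were at 152, 288, 191 and 65.4 and at 299, 577, 301 and 117 TPM at 5 weeks. At 25 weeks they were at 26, 19.1, 17.6 and 34.3 and at 50.2, 43.3, 36.1 and 71.1 TPM. Col1a1 fell by 2.66 (SE 0.49, adjusted p = 0.000793) and Col1a2 fell by 2.5 (SE 0.37, adjusted p = 5.92e-05). Both also fell in WT females, by 2.62 (adjusted p = 0.00264) for Col1a1 and by 2.21 (adjusted p = 0.000859) for Col1a2. Col3a1, the type III collagen chain, went from 613, 919, 448 and 210.0 TPM to 114, 94.4, 87.4 and 138 TPM and fell by 2.16 (SE 0.31, adjusted p = 4.03e-05). Sparc, a collagen-binding glycoprotein, went from 401, 653, 343 and 174 TPM to 78.8, 79, 69.1 and 91.7 TPM and fell by 2.14 (SE 0.25, adjusted p = 2.46e-06). Replicate 4 was the lowest of the young mice in all 4 genes. Postn, the matricellular protein periostin, fell by 2.28 (SE 0.42, adjusted p = 0.000795), from 102, 181, 136 and 31 TPM to 65, 13.9, 11 and 11.5 TPM, and here replicate 1 at 25 weeks lay above replicate 4 at 5 weeks.

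Of the other chains of collagen VI, Col6a1 and Col6a3 fell, 2 of 4 genes tested in the list, with the deleted Col6a2 counted among the 4. Col6a3 was at 61.9, 105, 47.7 and 25.1 TPM at 5 weeks and at 17.2, 15.3, 17.2 and 25.2 TPM at 25 weeks. It fell by 1.48 (SE 0.28, adjusted p = 0.00101), and the ages overlapped only at replicate 4. Col6a1 was at 67, 108, 55.2 and 28.8 TPM and at 45.5, 21.7, 20.4 and 28.6 TPM and fell by 1.05 (SE 0.26, adjusted p = 0.0109), a call that was lost without replicate 2 at 5 weeks or without replicate 2 or 3 at 25 weeks, with changes from -1.39 to -0.76 over the 8 fits. The interaction of age with genotype was not called for either gene, at -0.39 (adjusted p = 0.78) for Col6a3 and at -0.22 (adjusted p = 0.867) for Col6a1.

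Of 18 enzymes and chaperones that modify, fold and cut procollagen 11 fell, with a median of -0.74. The count was 6 without replicate 2 at 5 weeks and 15 without replicate 4. Plod1, a lysyl hydroxylase, went from 13.9, 16.6, 11.7 and 9.02 TPM to 7.63, 6.09, 6.52 and 7.01 TPM and fell by 0.79 (SE 0.12, adjusted p = 8e-05). P3h1, a prolyl 3-hydroxylase, fell by 0.91 (SE 0.16, adjusted p = 0.000363), and Adamts2, the procollagen N-proteinase, fell by 1.06 (SE 0.19, adjusted p = 0.000687). All 3, named for their small p, had no overlap between the ages, which held for 7.60% of all genes tested.

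Of 13 basement membrane genes 8 fell and none rose, with a median of -1.02, against 4 of 13 in WT females. The count was 12 without replicate 4 at 5 weeks and 7 without replicate 1 or 2 at either age. Col4a1 and Col4a2, the chains of the type IV collagen network, lie head to head on chromosome 8 with overlapping gene models. Col4a1 was at 101, 104, 70.9 and 48.4 TPM at 5 weeks and at 30.1, 21.6, 26.7 and 25.8 TPM at 25 weeks and fell by 1.55 (SE 0.19, adjusted p = 5.32e-06). Col4a2 fell by 1.46 (SE 0.17, adjusted p = 1.38e-06), and in WT females the falls were 0.74 (adjusted p = 0.0429) and 0.68 (adjusted p = 0.0271). Lamb1, a laminin beta chain, fell by 1.33 (SE 0.19, adjusted p = 4.29e-05). Its change in WT females was -0.54 (adjusted p = 0.181), and the difference between genotypes was not called (adjusted p = 0.458).

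**Figure D3:**
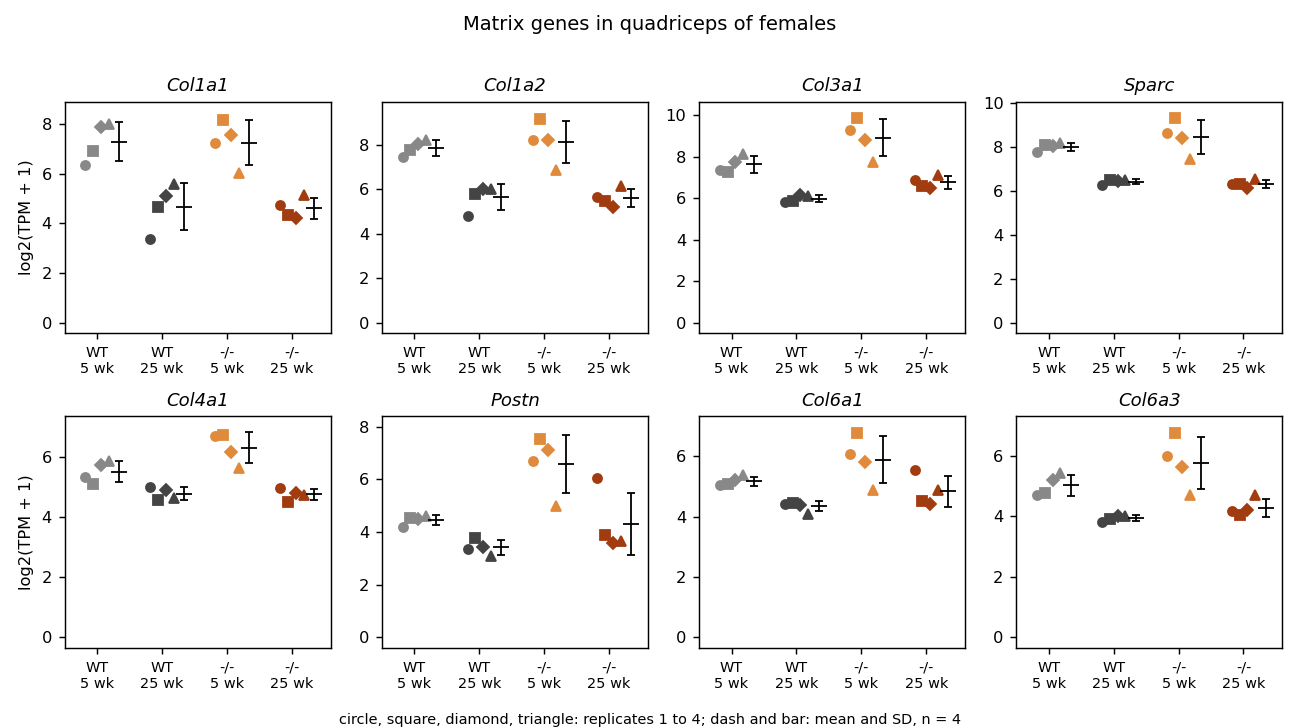
Levels of 8 matrix genes in the 16 female libraries as log2(TPM + 1), drawn as in the plot of fusion and receptor genes. The mean is lower at 25 weeks than at 5 weeks in both genotypes in each panel, and in the 5-week Col6a2-/- group replicate 2 (square) is highest and replicate 4 (triangle) lowest.

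Fibroblasts and tenocytes are cells that make matrix. The summed level of 12 markers of fibro-adipogenic cells was 593 to 1180 TPM at 5 weeks and 772 to 1173 TPM at 25 weeks in Col6a2-/- females, with 2 of 11 tested genes called lower (1 to 3 when 1 library was left out), and Tcf21 was at 0 in all 8 libraries. Col15a1, which is both such a marker and a basement membrane collagen, fell by 1.36 (SE 0.23, adjusted p = 0.000238). Tenocyte markers had 3 of 10 genes called lower, summed levels of 73.9 to 410 TPM at 5 weeks and 88.4 to 249 TPM at 25 weeks, and 1 call without replicate 2 at 5 weeks or without replicate 3 at 25 weeks. Tnmd, tenomodulin, fell by 2.0 (SE 0.45, adjusted p = 0.00488). The part of tendon or fibroblast content in the matrix falls was not tested.

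Of genes that supply or sense the growth factor TGF-beta, 1 of 21 was called: Smad7, the inhibitory Smad, rose by 0.34 (SE 0.093, adjusted p = 0.0206), a call lost without replicate 1 at 5 weeks or without replicate 1 or 3 at 25 weeks, with changes from 0.28 to 0.42 over the 8 fits, and lost without replicates 2 and 4 at 5 weeks together (adjusted p = 0.121). Tgfb1 was at 1.55, 2.17, 1.62 and 0.689 TPM and then at 0.848, 0.777, 0.729 and 1.22 TPM, a change of -0.38 that was not called (adjusted p = 0.129). Without replicate 4 at 5 weeks, 5 genes of this list were called lower. Of 17 genes known to be induced by TGF-beta, 5 fell and 1 rose, and the falls included Col1a1, Col3a1 and Timp1. Except for Timp1, the genes called here are also counted in another list: Col1a1, Col3a1, Bmp1, Cdkn1a and Smad7. Over all lists 22 genes stand in more than 1, so the list counts are not separate observations. Timp1, an inhibitor of matrix metalloproteinases, went from 8.36, 14.5, 10 and 3.15 TPM to 2.66, 1.92, 1.42 and 2.08 TPM and fell by 1.6 (SE 0.31, adjusted p = 0.00146). Its change in WT females was 0.17 (adjusted p = 0.9), and the difference between genotypes was not called, at -1.76 (adjusted p = 0.154).

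Of 16 imprinted genes of fetal and postnatal growth 10 fell, with a median of -1.05. This count stayed between 9 and 12 over the 8 fits that leave out 1 library and between 10 and 12 over the scalings, and 4 of the 16 fell in WT females. Cdkn1c, an inhibitor of cyclin-dependent kinases, went from 38.8, 48.9, 16.5 and 10.9 TPM to 4.71, 3.72, 3.64 and 4.92 TPM and fell by 2.28 (SE 0.27, adjusted p = 2.91e-06). Rian and Meg3, noncoding RNAs of the imprinted cluster on chromosome 12, fell by 2.15 (adjusted p = 5.13e-05) and 1.84 (adjusted p = 8.56e-05). Rian was at 65.5, 136, 47.9 and 28.3 TPM at 5 weeks and between 9.4 and 15.8 TPM at 25 weeks. Mest went from 10.6, 20.8, 5.18 and 1.91 TPM to 0.858, 0.585, 0.785 and 1.3 TPM and fell by 2.14 (SE 0.34, adjusted p = 0.000157). H19 fell by 1.69 (SE 0.40, adjusted p = 0.00804), a call lost without replicate 1 at 5 weeks, with changes from -2.03 to -1.43 over the 8 fits, and lost without replicates 2 and 4 at 5 weeks together (adjusted p = 0.0517). Igf2, the fetal insulin-like growth factor next to H19, fell by 1.81 (SE 0.31, adjusted p = 0.000343).

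Of 14 genes of the insulin-like growth factor axis 4 fell. Igf1, the main growth factor of postnatal life, fell by 1.08 (SE 0.24, adjusted p = 0.0056). Igfbp2, a binding protein, was at 1.53, 1.86, 1.36 and 0.334 TPM at 5 weeks, at 0 in 3 of the 25-week mice and at 0.0861 TPM in the other, and fell by 1.1 (SE 0.14, adjusted p = 6.66e-06). Igfbp7 fell by 0.93 (SE 0.16, adjusted p = 0.000475) and Igfbp3 fell by 0.84 (SE 0.18, adjusted p = 0.00383). Igfbp3 also fell in WT females, by 0.94 (adjusted p = 0.00381).

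Cell cycle genes, low at both ages, fell in 10 cases of 19, with a median of -0.56, against 0 of 19 in WT females. Of the 19, 9 would have failed the filter of 1 TPM in 4 libraries without the 5-week Col6a2-/- mice of both sexes, so these counts support no difference between the genotypes; the 4 females alone decided it for none. The count varied with the young mice: without replicate 2 at 5 weeks 2 genes were called and without replicate 4 at 5 weeks 15 were. Ccnb2, a mitotic cyclin, was at 0.914, 1.8, 0.49 and 0.293 TPM at 5 weeks and at 0.149, 0.0276, 0.188 and 0.0173 TPM at 25 weeks and fell by 0.71 (SE 0.16, adjusted p = 0.00488). Aurkb, a mitotic kinase, fell by 0.59 (SE 0.13, adjusted p = 0.00561). Mki67, the proliferation marker, was at 1.94, 5.46, 0.913 and 0.441 TPM and then at 0.551, 0.236, 0.156 and 0.308 TPM. It fell by 1.04 (SE 0.27, adjusted p = 0.0159), a call lost without replicate 1 or 2 at 5 weeks or without replicate 3 at 25 weeks, with changes from -1.34 to -0.62 over the 8 fits.

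Among p53 targets 3 of 10 fell. Gadd45a, which responds to DNA damage and to loss of the nerve, went from 22.5, 42.1, 20.2 and 12 TPM to 5.19, 6.66, 10.2 and 8.79 TPM and fell by 1.44 (SE 0.25, adjusted p = 0.000392). Cdkn1a, the cell cycle inhibitor p21, was at 15, 22.8, 11.2 and 6.5 TPM at 5 weeks and at 3.3, 3.15, 4.32 and 6.66 TPM at 25 weeks and fell by 1.39 (SE 0.30, adjusted p = 0.00354). In WT females the changes of Gadd45a and Cdkn1a were -0.13 (adjusted p = 0.902) and 0.22 (adjusted p = 0.843), and neither difference between genotypes was called. The third fall was Eda2r, described below, for which the difference was called (-1.76, adjusted p = 0.0113). Its fall was lost in several of the fits that leave out 1 library. Of the 10 genes tested, 2 were called higher and 0 lower in WT females.

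Of 19 interferon-stimulated genes 8 fell and none rose, with a median of -0.54, and all 19 had a negative change; none of the 19 was called in WT females. Without replicate 4 at 5 weeks 16 genes were called, and without replicate 2 at 5 weeks 3 were. Irf7, a transcription factor of the interferon response, was at 5.45, 5.03, 5.89 and 1.5 TPM at 5 weeks and at 1.26, 1.07, 1.03 and 1.22 TPM at 25 weeks. It fell by 1.25 (SE 0.22, adjusted p = 0.000537). Ifit1 went from 4.83, 7.37, 2.82 and 0.936 TPM to 0.787, 0.941, 0.91 and 0.977 TPM and fell by 1.2 (SE 0.24, adjusted p = 0.00163). Bst2, tetherin, went from 17.2, 17.5, 11.9 and 4.82 TPM to 5.34, 4.71, 4.74 and 5.61 TPM and fell by 1.05 (SE 0.23, adjusted p = 0.00409). In each of these 3 genes replicates 1 to 3 at 5 weeks stood above all other female libraries shown here, and replicate 4 did not.

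Macrophage markers were highest in replicate 2 and lowest in replicate 4 of the 8 Col6a2-/- females, both at 5 weeks. Their summed level was 286, 400.0, 227 and 121 TPM at 5 weeks and 190, 141, 131 and 242 TPM at 25 weeks, against 76.9 to 133 TPM in WT females, and no marker was at 0 throughout. Of the 15 markers 1 fell, Trem2, a receptor of lipid-laden macrophages, from 1.36, 1.7, 0.89 and 0.325 TPM to 0.138, 0.0775, 0.0358 and 0.319 TPM, and it fell by 0.81 (SE 0.15, adjusted p = 0.00077). Of the 15 markers, 2 would have failed the filter of 1 TPM in 4 libraries without the 5-week Col6a2-/- females. Among the female and the Col6a2-/- male libraries, Trem2 reached 1 TPM only in 5-week Col6a2-/- mice. Its call is therefore given as a description. Without replicate 4 at 5 weeks 10 of the 15 were called lower. The part of macrophage content in the interferon, TGF-beta and matrix results was not tested.

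Genes of metallothioneins and oxidative stress moved both ways, 3 of 11 lower and 2 higher, with 2 to 4 lower and 1 to 2 higher when 1 library was left out. Aldh3a1, a detoxifying aldehyde dehydrogenase (chr11:61207537-61218421 on GRCm38), had the largest fall of the genes chosen by the rule for naming. It was at 19.9, 32.9, 12.3 and 4.51 TPM at 5 weeks and at 0.080, 0.0229, 0.192 and 0.184 TPM at 25 weeks, and fell by 3.76 (SE 0.29, adjusted p = 1.47e-09). Hmox1, heme oxygenase 1, fell by 0.89 (SE 0.18, adjusted p = 0.00222). Nqo1, a quinone reductase, went the other way, from 4.51, 5.97, 4.26 and 5.27 TPM to 8.2, 9.78, 9.34 and 11.1 TPM. It rose by 0.82 (SE 0.13, adjusted p = 8.97e-05) and rose by 0.82 in WT females (adjusted p = 0.00042). Krt18, a keratin of simple epithelia, was at 9.41, 15.1, 8.13 and 1.72 TPM at 5 weeks and at 0.157, 0.72, 0.258 and 0.788 TPM at 25 weeks, and fell by 2.47 (SE 0.28, adjusted p = 1.38e-06). Its partner Krt8 fell by 1.29 (SE 0.16, adjusted p = 3.37e-06).

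Rises were fewer than falls, and several of the largest were also called in WT females. Ostn, which encodes the secreted muscle peptide musclin, was at 0.391, 1.21, 1.38 and 0.618 TPM at 5 weeks and at 6.23, 10.9, 9.93 and 13.9 TPM at 25 weeks. It rose by 2.55 (SE 0.23, adjusted p = 2.41e-08), and it rose by 1.48 in WT females (adjusted p = 0.000525); the difference between genotypes was not called (adjusted p = 0.369). C3, the central complement protein, went from 18.2, 16.3, 24.4 and 9.95 TPM to 75.3, 33.4, 34.6 and 57.2 TPM and rose by 1.47 (SE 0.32, adjusted p = 0.00363), a call lost without replicates 2 and 4 at 5 weeks together (1.13, adjusted p = 0.0644). Its change in WT females, 0.83, was not called (adjusted p = 0.23). Amy1, an alpha-amylase, went from 6.3, 3.23, 9.81 and 7.58 TPM to 20, 19.4, 17.5 and 16.4 TPM and rose by 1.4 (SE 0.20, adjusted p = 3.76e-05). Maob, the mitochondrial monoamine oxidase B, was at 3.12, 4.16, 3.53 and 3.63 TPM at 5 weeks and at 9.25, 9.41, 9.5 and 7.52 TPM at 25 weeks. It rose by 1.11 (SE 0.12, adjusted p = 8.05e-07), with little spread within either age. Nos1, the nitric oxide synthase of the fibre membrane, went from 2.36, 2.04, 2.57 and 3.27 TPM to 6.55, 5.74, 8.11 and 5.9 TPM and rose by 1.09 (SE 0.20, adjusted p = 0.000528). In WT females Amy1, Maob and Nos1 rose by 0.99, 1.01 and 1.16, with adjusted p of 0.00493, 1.8e-05 and 0.000868.

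The other named rises were Asb15, Klhl38, Cd24a, Pde7a, BB218582 and Lrrc2, with changes of 1.27, 1.24, 1.09, 1.03, 1.03 and 1.03. Each had adjusted p of at most 0.00179. Asb15 belongs to a family of ubiquitin ligase adaptors, and 2 of 14 genes in the list of ubiquitin ligases and FoxO genes rose. Asb2, of the same family, went from 42.1, 54.6, 57.7 and 46.7 TPM to 75.1, 97.1, 108 and 118 TPM and rose by 0.97 (SE 0.22, adjusted p = 0.0055). Fbxo32, the muscle ubiquitin ligase atrogin-1, was at 17.5, 27.3, 12.9 and 19.8 TPM at 5 weeks and at 32.7, 45.9, 30.7 and 34.1 TPM at 25 weeks. It rose by 0.88 (SE 0.20, adjusted p = 0.00614), and it rose by 1.73 in WT females (adjusted p = 1.55e-05).

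**Figure D4:**
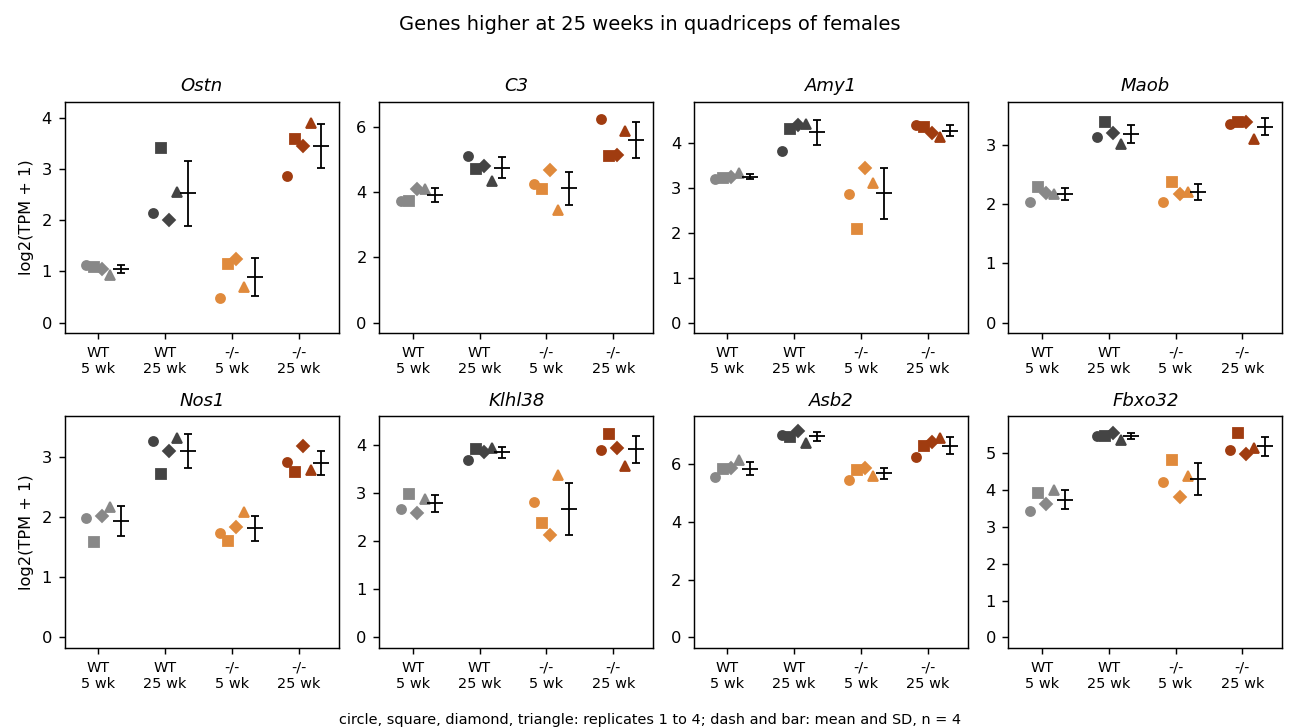
Levels of 8 genes that rose with age in the 16 female libraries as log2(TPM + 1), drawn as in the plot of fusion and receptor genes. In each panel the 4 Col6a2-/- mice of 25 weeks lie above the 4 of 5 weeks, and the mean is higher at 25 weeks in both genotypes.

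The small nucleolar RNA gene Rnu3a was also called higher, but its level lay on different ones of 2 gene IDs at one place. ENSMUSG00000065870 was at 0.00376 TPM or less in all 4 young Col6a2-/- mice and at 161, 87.4, 50.8 and 204 TPM in the old ones. ENSMUSG00000106147, at the same position, was at 263, 350, 288 and 196 TPM in the young mice and at 0, 54.2, 28.8 and 0 TPM in the old. Summed over both IDs the gene was at 196 to 350 TPM at 5 weeks and at 79.6 to 204 TPM at 25 weeks, so the rise of the single ID is not read as a rise of the RNA.

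Of 11 slow fibre genes none was called, although 10 had positive changes and the median was 0.91. Atp2a2, the slow calcium pump, was at 25.2, 36.5, 42.7 and 19.7 TPM at 5 weeks and at 44.7, 48.7, 63.6 and 99.4 TPM at 25 weeks (change 1.01, adjusted p = 0.109), and Myh7, the slow myosin heavy chain, was at 22.5, 33.8, 68.9 and 19.8 and at 45.5, 52.2, 77.1 and 173 TPM (change 1.21, adjusted p = 0.475). Replicate 4 at 25 weeks was the highest of the 8 in both. Of 14 fast fibre genes 2 fell: Mylpf, the fast regulatory light chain, by 0.78 (adjusted p = 0.000831), and Casq1, the calcium-binding protein of the fast sarcoplasmic reticulum, by 0.94 (adjusted p = 0.00201). The count of fast fibre genes called lower was 4 without replicate 4 at 25 weeks. The fast myosins Myh4 and Myh2 were not called, with differences of 0.015 (adjusted p = 0.98) and 0.47 (adjusted p = 0.582).

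Of 14 glycolysis genes 1 rose and 1 fell, of 28 oxidative phosphorylation genes 1 rose, and none of 19 lipid use or 24 ribosomal protein genes was called. Pfkm, muscle phosphofructokinase, rose by 0.47 (SE 0.12, adjusted p = 0.00978), and Pgk1, phosphoglycerate kinase, fell by 0.48 (SE 0.11, adjusted p = 0.00701). The call of Pgk1 was lost after rescaling without mitochondrial and Rn7s genes (-0.39, adjusted p = 0.0507) and without replicates 2 and 4 at 5 weeks together (-0.34, adjusted p = 0.0986). Without replicate 4 at 5 weeks, 2 glycolysis genes were called higher and 2 lower. The oxidative phosphorylation gene, Cox6a2, lost its call without replicate 1 or 2 at 5 weeks, without replicate 3 at 25 weeks and with quantile normalization, with adjusted p from 0.0624 to 0.0777. Of 27 proteasome genes 2 fell, a count that ran from 0 to 3 when 1 library was left out. No gene was called among 10 of the integrated stress response or 13 immediate early genes. When 1 library was left out, up to 2 lipid use genes were called higher, and 1 gene was called lower among ribosomal proteins (without replicate 4 at either age), the integrated stress response (without replicate 3 or 4 at 5 weeks) and immediate early genes (without replicate 4 at 5 weeks). The lowest adjusted p in these lists without calls was 0.123 for lipid use, 0.0622 for ribosomal proteins, 0.0771 for the integrated stress response and 0.127 for immediate early genes. The sign of the median of the fast fibre, glycolysis, ribosomal protein, integrated stress response and oxidative stress lists, and of the fibro-adipogenic markers, depended on the scaling.

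Of markers of other cells in the tissue, the genes called were 2 of 12 for endothelium, 1 of 11 for smooth muscle and pericytes and 2 of 9 for Schwann cells, all lower, and none of 12 for adipocytes, 3 for T and B cells or 5 for erythrocytes. For endothelium the count was 0 without replicate 1 at 5 weeks and 3 without replicate 4 at 5 weeks. For smooth muscle and pericytes it was 2 without replicate 4 at 5 weeks and 0 in 6 of the 8 fits that leave out 1 library. For adipocytes 1 gene was called lower without replicate 2 or 4 at 5 weeks, and for T and B cells up to 1 was called higher when 1 library was left out. Summed levels in Col6a2-/- females were 118 to 173 TPM at 5 weeks and 110 to 130 TPM at 25 weeks for endothelium, and 584 to 741 and 582 to 700 TPM for smooth muscle and pericytes. For adipocytes they were 821 to 1361 and 1002 to 1962 TPM. Among 25-week mice, replicate 1 stood alone in T and B cell markers, at 132 TPM against 26.6 to 42.4, and replicate 2 in erythrocyte markers, at 2634 TPM against 485 to 546. The T cell genes Cd3e, Cd3g, Cd3d, Cd4 and Cd8a were below 1 TPM in all 8 libraries.

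The change with age itself differed between genotypes in 15 genes, 0.117% of those tested, all with a larger fall in Col6a2-/- females. At an unadjusted p under 0.05 there were 1060 such genes. The 10 with the smallest adjusted p were Aldh3a1, Mymx, Myl4, Chrng, Mymk, Krt18, Krt8, Mfsd7a, Sln and Eda2r. With only the 16 female libraries in the fit, Aldh3a1, Mymx and Myl4 were called and the other 7 were not, with adjusted p from 0.0528 for Chrng to 0.332 for Sln. Sln also lost the call without replicate 2 at 5 weeks (adjusted p = 0.0536), and Krt18, Mymk and Sln lost it with a pseudocount of 0.1 TPM. Sln and Eda2r lost it with the replicate block. The change in Col6a2-/- minus that in WT females was -3.88 (SE 0.41, adjusted p = 2.41e-06) for Aldh3a1, -2.82 (SE 0.32, adjusted p = 8.62e-06) for Mymx and -2.76 (SE 0.32, adjusted p = 8.62e-06) for Myl4. For these 3 genes the WT changes were 0.12, -0.043 and 0.20, and none was called. The difference was -1.3 (SE 0.19, adjusted p = 0.000387) for Chrng, -1.81 (SE 0.27, adjusted p = 0.000686) for Mymk and -3.22 (SE 0.60, adjusted p = 0.0113) for Sln. For the keratins it was -2.47 (SE 0.40, adjusted p = 0.00212) for Krt18 and -1.3 (SE 0.22, adjusted p = 0.00435) for Krt8.

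The levels behind these calls are a description, since the genes were chosen for this difference. Of the 10 genes, 7 would have failed the filter of 1 TPM in 4 libraries without the 5-week Col6a2-/- mice of both sexes. The same held for 621 of all 12817 genes tested. These 7 genes were Aldh3a1, Mymx, Chrng, Mymk, Krt18, Krt8 and Mfsd7a. Each reached 1 TPM in 7 or 8 libraries, all of 5-week Col6a2-/- mice. Their calls for age by genotype are therefore a description and no further support for a difference between genotypes. In 9 of the 10 genes all 4 young Col6a2-/- mice lay above all 8 WT females, and in Eda2r 3 of 4 did. Eda2r, a receptor of the tumour necrosis factor receptor family, was the 1 gene of the 15 that was called in both genotypes and in opposite directions. It went from 11.3, 20.4, 8.55 and 5.18 TPM to 3.82, 4.71, 4.33 and 8.41 TPM in Col6a2-/- females and from 2.1, 2.63, 2.07 and 1.88 TPM to 4.68, 4.49, 5.55 and 4.73 TPM in WT females. The fall in Col6a2-/- females, by 0.87 (adjusted p = 0.0174), was lost without replicate 1 or 2 at 5 weeks or without replicate 1, 2 or 3 at 25 weeks, with changes from -1.16 to -0.56 over the 8 fits. The rise in WT females was 0.89 (adjusted p = 0.0388) and the difference was -1.76 (SE 0.33, adjusted p = 0.0113). With the replicate block the difference was not called. At 25 weeks the levels in Col6a2-/- females were near those of WT females in some genes and above them in others. All 4 old Col6a2-/- mice were above all 8 WT females in Mymx, 3 of 4 were in Chrng, Krt18 and Mfsd7a, and none was in Aldh3a1 or Mymk.

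The remaining 5 genes, Lgals3, Igfbp2, Plekhh1, Tnnt2 and Mt3, had adjusted p from 0.0223 to 0.0437 for the difference. Of all 15 genes, 9 would have failed the filter of 1 TPM in 4 libraries without the 5-week Col6a2-/- mice of both sexes. Without the 4 females alone 1 would have failed. Igfbp2 and Plekhh1 reached 1 TPM in 7 and 5 libraries, all of 5-week Col6a2-/- mice. Like the calls of Aldh3a1, Mymx and the others named above for this filter, their calls are therefore no further support for a difference between genotypes. All 5 lost the call with only the 16 female libraries, with the replicate block and with a pseudocount of 0.1 TPM. Lgals3, galectin-3, was at 24.2, 26.4, 15.4 and 7.91 TPM in the young and at 5.58, 5.29, 4.14 and 7.63 TPM in the old Col6a2-/- females, and all 8 lay above all WT females. The count of 15 depended on replicate 4 at 5 weeks: without it 318 genes were called, 312 of them with the larger fall in Col6a2-/- females, and without replicate 2 at 5 weeks 9 were. All 15 were among the 318. Of the lists, the median difference between genotypes was -0.74 for interferon-stimulated genes, -0.51 for macrophage markers, -0.51 for Schwann cell markers, -0.49 for cell cycle genes and -0.48 for fibrillar matrix, and no gene of these 5 lists was called for the difference. The median over all genes tested was -0.15, and it was -0.0045 by median-of-ratios scaling and 0.012 with quantile normalization.

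**Figure D5:**
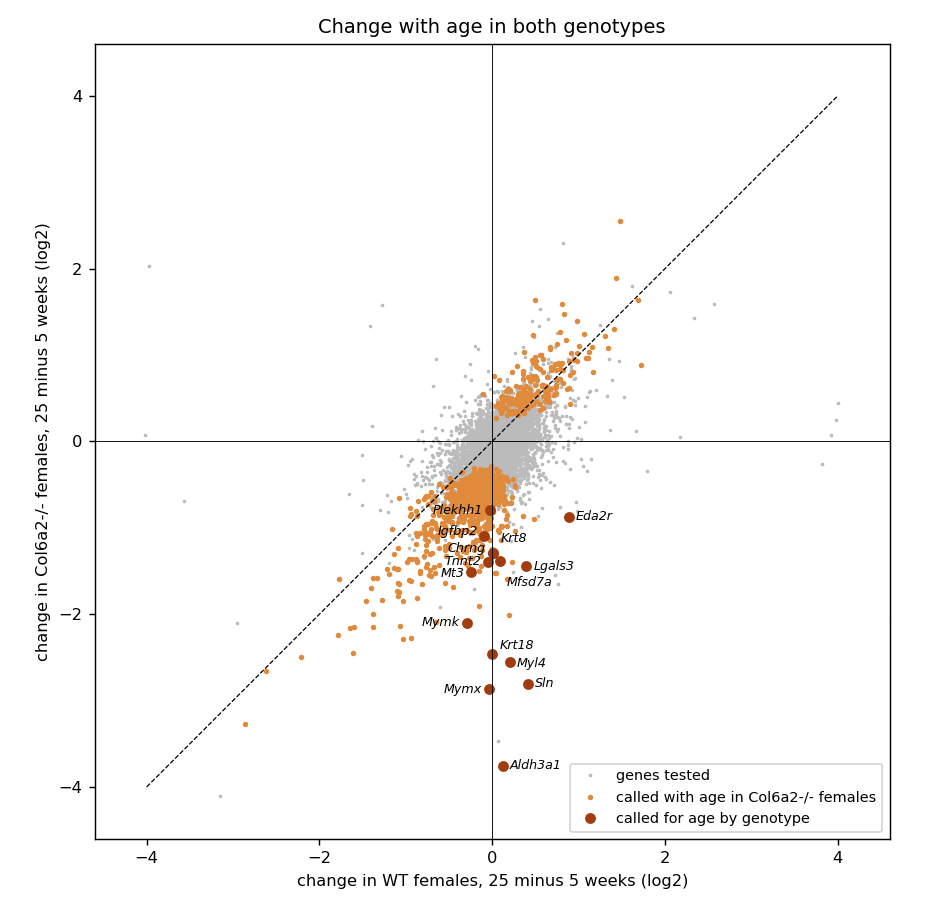
Change from 5 to 25 weeks on the log2(TPM + 1) scale in WT females (x axis) against Col6a2-/- females (y axis), 1 point per gene tested, with genes called in Col6a2-/- females in light orange and the 15 genes called for age by genotype labelled. The dashed line marks equal change, 4 genes lie outside the axes, and the 15 labelled genes lie below the line.

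The change with age differed between Col6a2-/- females and males in 9 genes (0.0702%), and 623 genes had an unadjusted p under 0.05. All 9 rose less, or did not rise, in females, and 5 of them (Amd1, Amd2, Amd-ps1, Amd-ps3 and Amd-ps4) are near-identical copies among which reads can be split, so they count as 1 observation. Without replicate 2 at 5 weeks in females 29 genes were called, 19 of them with the larger rise or smaller fall in females, and with array weights 9 were called in each direction. Actr3b, an actin-related protein, went from 0.331, 0.316, 0.246 and 0.258 TPM to 1.03, 1.0, 1.02 and 1.03 TPM in females and from 0.637, 0.611, 0.337 and 0.506 TPM to 5.0, 4.34, 4.83 and 6.18 TPM in males, and the difference was -1.35 (SE 0.16, adjusted p = 4.31e-05). Amd1 encodes the decarboxylase that commits S-adenosylmethionine to polyamine synthesis. It rose by 0.64 in females (adjusted p = 0.0125), from 19.3, 26.9, 20 and 24.9 TPM to 28.1, 36.2, 36 and 44.8 TPM, and by 2.12 in males (adjusted p = 2.79e-10), from 32.5, 33.3, 35 and 32.1 TPM to 183, 148, 120.4 and 148 TPM. The difference was -1.48 (SE 0.23, adjusted p = 0.00157), and the call in females was lost without replicate 1 at 5 weeks or without replicate 4 at 25 weeks, with changes from 0.54 to 0.76 over the 8 fits. Tmem132b, a membrane protein, was the other gene named by the rule, with a difference of -0.76 (SE 0.11, adjusted p = 0.00157) and levels under 0.5 TPM in every Col6a2-/- female. With a pseudocount of 0.1 TPM the differences by sex of Actr3b (adjusted p = 0.0814) and Tmem132b (adjusted p = 0.675) were not called.

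Several named genes share exonic sequence with another gene model, and without a stated use of strand their reads cannot be told apart. On the opposite strand this concerns Ostn, Klhl38, Nos1, Pde7a, Myl4, Cdkn1c, Mest, Col4a1, Col4a2, Gadd45a, Cdkn1a, Irf7, Igfbp7, Krt8, Fbxo32, Casq1, Atp2a2, Myh7, Myh2, Plekhh1 and Col15a1, and on the same strand Amy1, Col3a1, Rian, Meg3, H19, Igf2 and Pfkm. Fbxo32 and Klhl38 overlap the same antisense model.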

How the data were processed

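RNA from snap-frozen, cryosectioned quadriceps was sequenced as paired 150 base reads from TruSeq libraries, per the labels' protocols. The submitters' processing notes name FastQC, MultiQC, Trimmomatic, HISAT2, SAMtools, StringTie and GRCm38/mm10; versions, and whether counting used strand, are not given in the sources used here. Each of the 32 deposited tables gives coverage (a signal), FPKM and TPM per gene, estimated by the authors; the deposited tables hold no read counts, so depth was taken as the relative ratio of coverage to FPKM and gives no interval.

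TPM was summed per gene ID (53801 IDs, 53706 of them in GENCODE M21). The 12817 genes that reached 1 TPM in 4 or more of the 32 libraries were fitted as log2(TPM + 1) with limma 3.58.1 in R 4.3.3 (trend, 8 group means, 24 residual degrees of freedom). Contrasts were age in Col6a2-/- females, in WT females and in Col6a2-/- males, and the differences of the first from the other two. Genes were called at a Benjamini-Hochberg adjusted p under 0.05, two-sided. The script was tested on simulated data.

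The members and lists were chosen with earlier results of these data known. The rule named the 12 largest rises and 12 largest falls among called genes without overlap between the ages, with a group mean of at least 5 TPM and no clone or model symbol; the 3 members of each list with the smallest p; Col6a1, Col6a2 and Col6a3; and up to 10 and 5 genes of the differences by genotype and by sex. Chosen after their values were seen were Myh3, Mki67, Postn, H19, Chrna1, Myh7, Myh2, Myh4, Tgfb1, Myf5, Chrne, Igf1, Igf2, Lgals3, Plekhh1 and Mt3. A few genes that the rule names are not reported here. The alternatives were other pseudocounts, filters and scalings, array weights, a replicate block, fits on fewer groups and leaving out each replicate; leaving out 5-week replicates 2 and 4 together was added after seeing the data.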

Additional observations from a re-analysis of the deposited data

Results flagged for a closer look

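In 16 of 278 groups of 4 mice examined among the named genes of the Col6a2-/- females, 1 mouse lay far from the other 3. Its gap to the nearest of them took up most of the group's range. Chance gives about 1 such group in 20, and the count was near that share. The cases below are therefore listed only as a description. At 25 weeks replicate 2 stood out in genes of red blood cells, with Hba-a1 at 596, Hba-a2 at 713 and Alas2 at 14.7 TPM, where the others reached at most 128, 151 and 3.06 TPM. The same mouse had Ucp1 at 0.194 TPM, listed at 0 in the others, and Casq2 at 16.3 TPM against 19.9 to 20.2. Replicate 1 at 25 weeks had Igkc, an immunoglobulin chain, at 38.3 TPM against 0.167 to 0.944, and Postn at 65.0 TPM against 11 to 13.9. Replicate 4 at 25 weeks was low in Maob, at 7.52 TPM against 9.25 to 9.50, and in Ppargc1a, at 3.49 TPM against 6.91 to 7.64. It was high in the embryonic myosin Myh3, at 5.69 TPM against 1.89 to 2.29, and in Igfbp2, at 0.0861 TPM where the others were listed at 0. Replicate 3 at 25 weeks was high in Zfp36, at 3.08 TPM against 2.17 to 2.21, and low in Igfbp7, at 43.5 TPM against 49.5 to 50.7. At 5 weeks replicate 4 was low in Irf7, at 1.5 TPM against 5.03 to 5.89, and in Igkc, at 0.0184 TPM against 0.499 to 0.513, and high in Pde7a, at 14.4 TPM against 8.41 to 8.72.

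The change with age was called as different between Col6a2-/- and WT females, by the test of the difference itself (limma), in 10 genes. They were Aldh3a1 (-3.88), Mymx (-2.82), Myl4 (-2.76), Krt18 (-2.47), Mymk (-1.81), Chrng (-1.30), Sln (-3.22), Eda2r (-1.76), Krt8 (-1.30) and Mfsd7a (-1.48), each the log2 change in Col6a2-/- minus that in WT. With only the 16 female libraries Aldh3a1, Mymx and Myl4 were called and the other 7 were not. That fit kept the same genes. Of the 10 genes, 7 would have failed the filter without the 5-week Col6a2-/- mice of both sexes, Aldh3a1 and Mymx among them. The change with age was called as different between Col6a2-/- females and males in Actr3b (-1.35), Tmem132b (-0.76), Amd2 (-1.46), Amd1 (-1.48) and Amd-ps3 (-1.35), each the log2 change in females minus that in males. The 3 Amd genes share reads and count as 1 observation.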

How the results depend on the processing

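The count of 961 genes called with age in Col6a2-/- females became 536 with a filter at 5 TPM, 1873 with median-of-ratios size factors, 1764 without the 100 most abundant genes, 1916 with quantile normalization, 2555 with array weights and 112 with only these 8 libraries; it ran from 487 to 2433 when 1 library was left out. The count of 15 for age by genotype became 7 with a pseudocount of 0.1 TPM, 23 with no filter, 8 at 5 TPM, 28 with median-of-ratios or without the 100 most abundant genes, 30 with quantile normalization, 250 with array weights, 4 with only the female libraries and 55 without 5-week replicates 2 and 4, and ran from 9 to 318 when 1 library was left out. The count of 9 for age by sex became 4 with a pseudocount of 0.1 TPM and 18 with array weights (9 in each direction), and ran from 7 to 29 (19 of the 29 in the opposite direction). Same-numbered mice of the 2 ages did not deviate together (r of -0.00022, -0.20, 0.015 and -0.14, and 0 of 4 correlated best with their own number), so the numbers are not read as pairs; the replicate block gave 864, 8 and 8 calls, and Sln and Eda2r lost the call for age by genotype. Of 93 named calls, 72 were made in all 8 fits that leave out 1 library and 48 were lost with only the 8 Col6a2-/- female libraries. Over all named results and settings, 2677 values kept their direction and side of the threshold, 164 were no longer called, 71 became called and 4 changed sign: Retn to -0.18 without 5-week replicates 2 and 4, and Myh4 to -0.029, -0.22 and -0.15 without 5-week replicate 1, 5-week replicate 3 and 25-week replicate 4 (range -0.22 to 0.28 with 1 library left out). Without read counts, sampling error of genes at low TPM could not be given. The causes of these shifts were not tested.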
